A study of Homo sapiens with 8 samples.

Results

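A set of 10 chemokine genes that recruit white blood cells was followed across the study: IL8 (the older symbol of CXCL8), CXCL1, CXCL2, CXCL3, CXCL5, CXCL6, CXCL16, CCL2, CCL5 and CCL20. They are 10 of the 55679 genes in the count table, they were chosen by their symbols from results of the same libraries, and each had 1 row. Their levels and ratios are therefore given as a description, with no test.

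The samples were MDA-MB468 and BT549, human triple-negative breast cancer cell lines, each as parental cells and as chronic exposure (CE) cells. CE cells had been passaged in rising concentrations of Acetalax, a laxative also called oxyphenisatin acetate, were taken as resistant clones at 40 μM and were then kept free of it for 2 weeks. In each of these 4 backgrounds 1 library came from control cells without the drug and 1 from cells given 1 μM Acetalax for 6 hours, so that there were 8 libraries and 1 per condition. A difference between libraries thus has no replicate check, and the CE cells of a line stand for 1 selected population.

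Chemokines are small secreted proteins that draw leukocytes along a gradient by binding receptors on their surface. IL8 and its CXC relatives CXCL1, CXCL2, CXCL3, CXCL5 and CXCL6 carry the ELR motif of amino acids. They act on CXCR2, some of them also on CXCR1, and both receptors are abundant on neutrophils. CCL2 acts on CCR2 of monocytes, CCL20 on CCR6 of lymphocytes and dendritic cells, and CCL5 attracts monocytes and T cells, while CXCL16 is made as a membrane protein that binds CXCR6 on T cells and can be shed by ADAM10. In epithelial and tumour cells many of these genes are known targets of NF-κB and AP-1, transcription factors that inflammatory cytokines and stress activate.

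The 6 ELR genes lie within 358.8 kb of chromosome 4, from 74606223 to 74965010 on hg19, the build of the count table. Of the other 10 rows of the table in this interval, which include PF4, PF4V1 and PPBP, platelet chemokine genes, none had more than 6 counts in any library. In the order of the chromosome the ELR genes are IL8 (ENSG00000169429, start 74606223), CXCL6 (ENSG00000124875, 74702214), CXCL1 (ENSG00000163739, 74735110), CXCL5 (ENSG00000163735, 74861359), CXCL3 (ENSG00000163734, 74902306) and CXCL2 (ENSG00000081041, 74962752). CXCL16 (ENSG00000161921) lies on chromosome 17 from 4636821 to 4643217, CCL2 (ENSG00000108691) on chromosome 17 from 32582304 to 32584222, and CCL20 (ENSG00000115009) on chromosome 2 from 228678558 to 228682272. Promoters of 7 of the 10 genes were read from a RefSeq table on GRCh38.p14, covering 250 bases before and 50 bases from the gene's first base; CXCL16, CCL2 and CCL5 had no entry. Those of IL8, CXCL1 and CCL20 are printed because these genes had the largest Acetalax ratios, and those of CXCL5 and CXCL6 because they are alike in sequence while the genes differed widely in level. IL8 is at chr4:73740319-73740618 (plus strand), CXCL1 at chr4:73869143-73869442 (plus strand), CXCL5 at chr4:73998628-73998927 (minus strand), CXCL6 at chr4:73836428-73836727 (plus strand) and CCL20 at chr2:227813592-227813891 (plus strand). Each is written 5′ to 3′ along the gene's strand, and capitals mark matches to GGAATTTCC, an NF-κB-type sequence, to TGANTCA, an AP-1-type sequence, and to TATAAA, a core promoter element.
IL8 (CXCL8): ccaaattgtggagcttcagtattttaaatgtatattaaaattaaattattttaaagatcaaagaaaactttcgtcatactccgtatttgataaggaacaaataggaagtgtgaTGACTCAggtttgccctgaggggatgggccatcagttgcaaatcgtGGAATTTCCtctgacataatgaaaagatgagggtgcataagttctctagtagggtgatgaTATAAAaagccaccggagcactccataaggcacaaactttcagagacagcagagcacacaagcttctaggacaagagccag
CXCL1: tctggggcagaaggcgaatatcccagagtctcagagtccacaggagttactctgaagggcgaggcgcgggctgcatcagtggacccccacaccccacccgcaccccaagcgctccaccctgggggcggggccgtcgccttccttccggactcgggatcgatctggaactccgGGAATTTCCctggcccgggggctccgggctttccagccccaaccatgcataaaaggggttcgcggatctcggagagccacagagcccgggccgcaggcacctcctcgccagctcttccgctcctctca
CXCL5: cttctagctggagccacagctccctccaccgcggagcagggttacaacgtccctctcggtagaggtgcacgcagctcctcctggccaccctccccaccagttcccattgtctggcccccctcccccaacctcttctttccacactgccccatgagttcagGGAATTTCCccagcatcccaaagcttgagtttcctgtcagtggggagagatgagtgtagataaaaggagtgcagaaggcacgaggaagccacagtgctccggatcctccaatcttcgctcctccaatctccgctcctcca
CXCL6: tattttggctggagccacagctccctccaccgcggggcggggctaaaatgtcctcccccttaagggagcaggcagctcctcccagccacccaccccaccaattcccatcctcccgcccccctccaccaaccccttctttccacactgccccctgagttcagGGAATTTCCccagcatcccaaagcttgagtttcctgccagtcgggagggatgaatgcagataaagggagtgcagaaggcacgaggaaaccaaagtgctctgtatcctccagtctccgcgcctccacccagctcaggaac
CCL20: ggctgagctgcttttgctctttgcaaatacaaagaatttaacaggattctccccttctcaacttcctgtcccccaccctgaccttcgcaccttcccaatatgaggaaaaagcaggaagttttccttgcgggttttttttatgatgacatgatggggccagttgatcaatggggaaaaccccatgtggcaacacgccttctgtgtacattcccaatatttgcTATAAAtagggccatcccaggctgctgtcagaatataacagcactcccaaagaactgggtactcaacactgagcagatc

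The NF-κB-type sequence GGAATTTCC was found, on either strand, in 6 of the 7 promoters (IL8, CXCL1, CXCL2, CXCL3, CXCL5 and CXCL6) and in 0.461% of all 35116 promoters of this length. It began between 91 and 77 bases before the gene's first base in these genes. The looser NF-κB consensus, which overlaps it, was found in 6 of the 7 (CXCL1, CXCL2, CXCL3, CXCL5, CXCL6 and CCL20) and in 11.3% of all promoters, and GGANNNNCC in 7 of the 7 and in 53.6%. The AP-1-type sequence was in the IL8 promoter alone among the 7 and in 7.71% of all promoters, and TATAAA was in those of IL8 and CCL20 and in 11.5%. These sequences were chosen with the promoters in view, and a match describes letters only. CXCL5 and CXCL6 promoters were identical in 83.1% of 302 aligned columns, and those of CXCL1 and CXCL3 in 82.5% of 308. CXCL6 held the same match as CXCL5 and had at most 2 counts in any library.

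**Figure D1:**
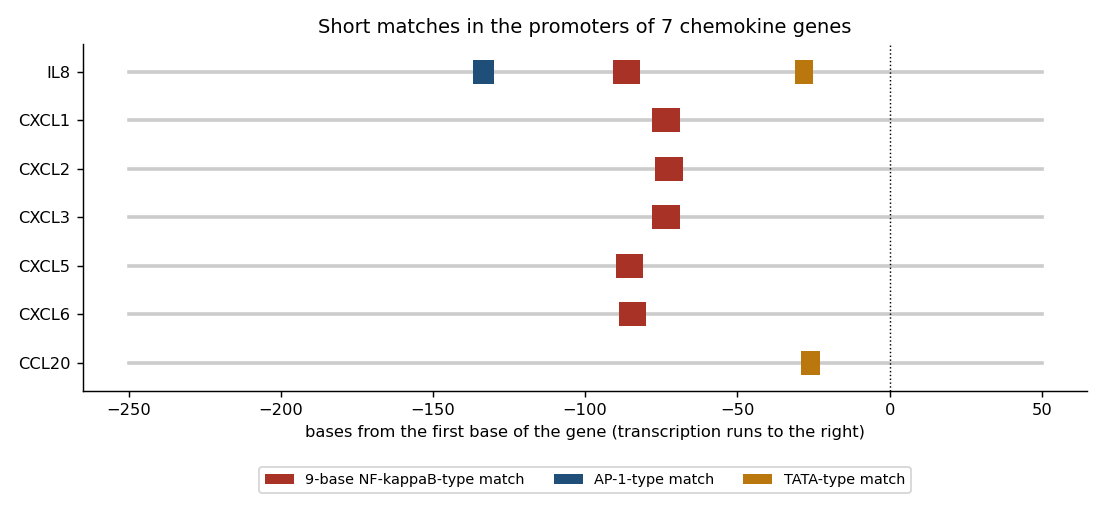
Map of the 300-base promoters of 7 chemokine genes, with the distance in bases from the gene's first base on the horizontal axis and 1 line per gene; coloured blocks are matches to the 9-base NF-κB-type, the AP-1-type and the TATA-type sequences. The NF-κB-type block lies at a similar distance in the 6 ELR genes, and CCL20 has only the TATA-type block.

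The libraries held from 42261122 to 54241728 counts on genes. Levels are given in CPM, a gene's counts scaled per-million to all counts on genes, which compare libraries for 1 gene, and 1 CPM stood for 42.3 to 54.2 counts. Intervals are 95% intervals (Wilson for a level, exact Clopper-Pearson for a ratio of 2 counts), and they cover counting error only. For a difference of 2 log2 ratios the interval is a Wald interval, a normal approximation. A library with 0 counts allows up to 3 counts, which is 0.0553 to 0.071 CPM. In bulk RNA, fewer cells that express a gene and less RNA per cell cannot be told apart. The lines differed in their markers: 7 epithelial markers summed to between 7018 and 9485 CPM in MDA-MB468 and between 8.02 and 90.5 CPM in BT549, and 7 mesenchymal markers to between 28.0 and 80.4 CPM and between 4679 and 6406 CPM. Parental and CE cells of a line also differed. The BT549 epithelial sum was 11.1 and 8.02 CPM in parental control and treated cells and 90.5 and 54.6 CPM in CE cells. In MDA-MB468 the mesenchymal sum was 56.6 and 80.4 CPM in parental and 28.0 and 33.5 CPM in CE cells. Of 15 leukocyte markers, 11 averaged under 1 CPM, and FCGR3B, AIF1 and CD3E had 0 counts in every library.

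IL8 had the highest Acetalax ratio of the members in 3 of the 4 backgrounds. In BT549 parental cells, 1 of these 3, its interval of 2.05 to 2.16 lay within that of CCL20, -0.73 to 2.32 on 7 and 12 counts. In MDA-MB468 CE cells its order against CXCL1 and CCL20 was not settled, since the counting intervals of the 3 ratios overlapped and IL8 was below both without a pseudocount and above both with log2(CPM + 0.5), at 3.12, 2.22 and 2.40 for IL8, CXCL1 and CCL20. Its level in MDA-MB468 was 1.87 CPM (interval 1.52 to 2.30) in parental control cells, 65.3 CPM (63.1 to 67.7) in parental cells given Acetalax, 2.92 CPM (2.46 to 3.47) in CE control cells and 29.2 CPM (27.7 to 30.7) in CE cells given Acetalax. In BT549 the same 4 libraries had 85.4 CPM (82.6 to 88.2), 367 CPM (361 to 373), 8.68 CPM (7.93 to 9.50) and 607 CPM (600 to 614). Every treated library was above the control library of its background, and the lowest BT549 library was the CE control. The Acetalax ratio on the log2 scale was 5.13 (4.83 to 5.44) in MDA-MB468 parental cells, a 34.9-fold higher level, and 3.32 (3.06 to 3.59), 9.98-fold, in MDA-MB468 CE cells. In BT549 it was 2.10 (2.05 to 2.16), 4.30-fold, in parental cells and 6.13 (6.00 to 6.26), 69.9-fold, in CE cells. That last value was the highest of 18906 genes with at least 10 counts over the pair of libraries, and the value in MDA-MB468 parental cells ranked 6 of 19847.

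The IL8 ratio differed between parental and CE cells in opposite ways in the lines. The CE ratio minus the parental ratio was -1.81 on the log2 scale (counting interval -2.20 to -1.41) in MDA-MB468 and 4.02 (3.88 to 4.16) in BT549. Before treatment IL8 was 1.56-fold higher in MDA-MB468 CE than parental cells, a log2 ratio of 0.64 (0.24 to 1.05), and 9.83-fold lower in BT549 CE than parental cells, a log2 ratio of -3.30 (-3.44 to -3.16). After Acetalax, by contrast, the CE library was the lower one in MDA-MB468 and the higher one in BT549. In BT549 the CE and parental cells had 8.68 and 85.4 CPM as controls and 607 and 367 CPM after Acetalax. The larger part of the 4.02 thus lies in the control libraries, of which there was 1 for each state. For a count over all genes, a 0 was set to 3 counts, and a pair whose other library had at most 3 counts gave no ratio. Of 10766 genes that averaged 5 CPM or more and had a ratio in every Acetalax pair, 14 were at least 2-fold higher in all 4 pairs, which is 0.13%. IL8 was 1 of these 14 and the only one of the 6 members that met the conditions on level and ratios.

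**Figure D2:**
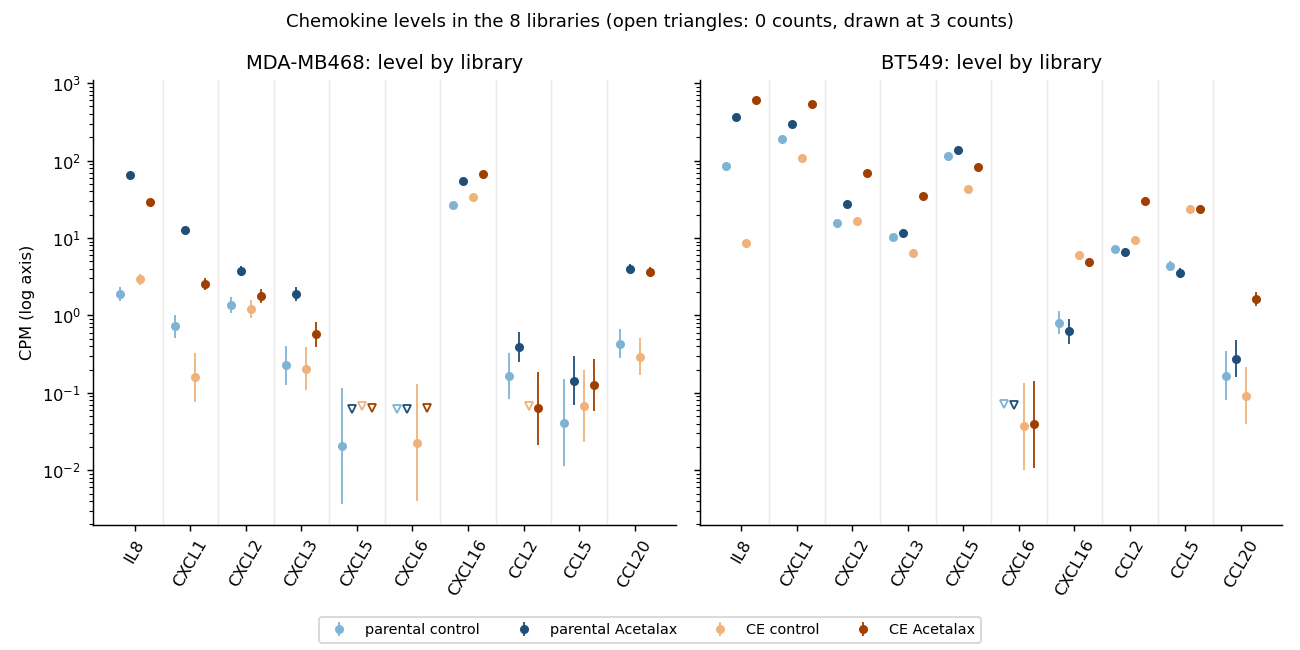
Level of each chemokine gene in CPM on a log axis, in MDA-MB468 (left) and BT549 (right), with 1 point per library, bars for the 95% counting interval and open triangles for libraries with 0 counts, drawn at the level of 3 counts. IL8 spans 1.87 to 65.3 CPM in MDA-MB468 and 8.68 to 607 CPM in BT549, and CXCL5 is high in BT549 and at 0 or 1 count in MDA-MB468.

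CXCL1, an ELR chemokine first known as a melanoma growth-stimulating activity, had 0.72 CPM in MDA-MB468 parental control cells and 12.8 CPM after Acetalax, and 0.159 CPM in CE control cells and 2.57 CPM after Acetalax. In BT549 it had 190.1 CPM and 298 CPM in parental cells and 109 CPM and 533 CPM in CE cells. The 2 lines did not overlap, and in each background the treated library was the higher one. The Acetalax log2 ratio was 4.15 (3.66 to 4.68) and 4.02 (2.93 to 5.36) in MDA-MB468 parental and CE cells, and 0.65 (0.61 to 0.69) and 2.29 (2.25 to 2.33) in those of BT549. The ratio in CE cells was thus larger than in parental cells by 1.64 (1.58 to 1.70) in BT549, while in MDA-MB468 the difference of -0.13 (-1.34 to 1.07) was within counting error. Before treatment CXCL1 was lower in CE than parental cells of both lines, with log2 ratios of -2.18 (-3.60 to -0.99) in MDA-MB468, on 7 and 35 counts, and -0.80 (-0.85 to -0.75) in BT549.

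CXCL2 and CXCL3, close relatives of CXCL1, were also higher in the treated library of every background. CXCL2 had 1.36, 3.77, 1.20 and 1.79 CPM in the MDA-MB468 parental control, parental Acetalax, CE control and CE Acetalax libraries, and 15.7, 27.9, 16.4 and 69.6 CPM in those of BT549. CXCL3 had 0.226, 1.89, 0.204 and 0.568 CPM in the same order in MDA-MB468 and 10.2, 11.5, 6.43 and 34.5 CPM in BT549. The control libraries of parental and CE cells were close for CXCL2 in both lines, and the BT549 CE library given Acetalax stood above the other BT549 libraries for both genes. The Acetalax log2 ratio of CXCL2 ranged from 0.57 in MDA-MB468 CE cells to 2.09 in BT549 CE cells, and that of CXCL3 from 0.17 (-0.02 to 0.36) in BT549 parental cells to 3.07 in MDA-MB468 parental cells. As with IL8, the ratio was smaller in CE than parental cells of MDA-MB468, with a difference of -0.90 (-1.54 to -0.26) for CXCL2 and -1.59 (-3.00 to -0.17) for CXCL3. In BT549 it was larger in CE cells, with differences of 1.26 (1.09 to 1.43) and 2.25 (2.00 to 2.50). None of the 101-base stretches of the longest coding transcripts of CXCL1, CXCL2 and CXCL3 occurred in an annotated transcript of another gene.

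CXCL5, also known as epithelial neutrophil-activating peptide, had 1, 0, 0 and 0 counts in the MDA-MB468 libraries. In BT549 it had 115 CPM in parental control cells, 137 CPM after Acetalax, 42.8 CPM in CE control cells and 82.3 CPM after Acetalax. Both CE libraries were therefore below both parental libraries. The Acetalax log2 ratio was 0.25 (0.20 to 0.31) in parental and 0.94 (0.87 to 1.02) in CE cells of BT549, and the ratio of CE to parental control cells was -1.43, which is 2.69-fold lower. CXCL6 had between 0 and 2 counts in each of the 8 libraries, so a response of CXCL6 was not detectable at this depth.

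The 6 ELR genes together had 4.20 CPM in MDA-MB468 parental control cells, 83.8 CPM after Acetalax, 4.51 CPM in CE control cells and 34.1 CPM after Acetalax. In BT549 the sum was 416 CPM, 841 CPM, 184 CPM and 1327 CPM in the same order. The sum after Acetalax was 20.0-fold and 7.56-fold that of the control in MDA-MB468 parental and CE cells, and 2.02-fold and 7.22-fold in those of BT549. Shares of the genes were taken per length, from FPKM, which is CPM divided by the length of the merged exons in kilobases. For IL8 this length is 2588 bases, and its longest coding transcript has 1642, so the sizes of the shares depend on the length chosen. IL8 made up 31.0% of the summed FPKM of the 6 genes in MDA-MB468 parental control cells and 66.2% after Acetalax, and 51.2% and 76.7% in CE cells. In BT549 its share was 14.0% and 32.1% in parental cells and 2.90% and 32.3% in CE cells. The IL8 share was higher after Acetalax in all 4 backgrounds, and in BT549 CXCL1 kept the largest share, from 49.5% to 69.3%. CXCL2 made up 41.6% in MDA-MB468 parental control cells and 7.06% after Acetalax, and in BT549 CE cells CXCL5 had 15.2% in control and 4.66% in treated cells.

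**Figure D3:**
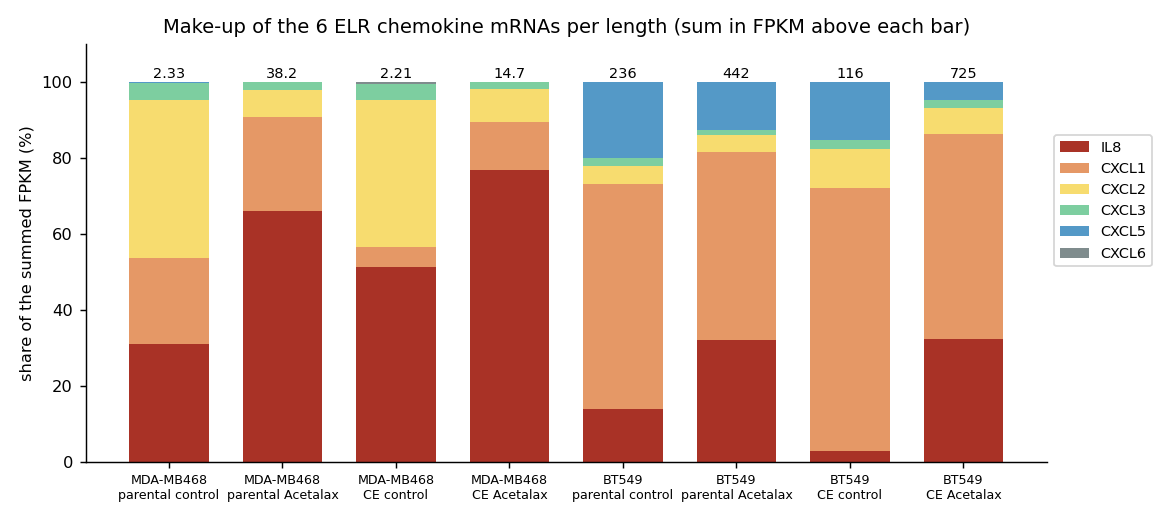
Share of each gene in the summed FPKM of the 6 ELR chemokine genes, in percent, with 1 stacked bar per library and the sum in FPKM above it. The IL8 share is larger in the Acetalax bar than in the control bar of each background, and it is smallest in BT549 CE control cells at 2.90%.

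Among the CC chemokines, CCL20 had 0.432 CPM in MDA-MB468 parental control cells and 4.04 CPM after Acetalax, and 0.294 and 3.68 CPM in CE cells. In BT549 it had 0.166 and 0.276 CPM in parental cells, on 7 and 12 counts, and 0.0922 and 1.64 CPM in CE cells, on 5 and 83 counts. CCL20 was low in all control libraries and clearly above them in 3 of the 4 treated ones. The Acetalax log2 ratio was 3.22 (2.57 to 3.95) and 3.64 (2.83 to 4.58) in MDA-MB468 parental and CE cells, and 0.74 (-0.73 to 2.32) and 4.15 (2.87 to 5.81) in those of BT549. The value in BT549 CE cells ranked 11 of 18906 genes without a pseudocount, and it was 1.85 with log2(CPM + 0.5) and 0.94 with log2(FPKM+1).

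CCL2, which attracts monocytes, had 8, 19, 0 and 3 counts in the MDA-MB468 parental control, parental Acetalax, CE control and CE Acetalax libraries. In BT549 it had 7.12 and 6.62 CPM in parental control and treated cells, and 9.44 and 30.0 CPM in CE control and treated cells. The BT549 CE library given Acetalax stood apart, and the difference between the parental libraries was within counting error. The log2 ratios in BT549 were -0.11 (-0.34 to 0.13) in parental and 1.67 (1.52 to 1.81) in CE cells.

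CCL5, a chemoattractant for T cells and monocytes, had at most 7 counts in each MDA-MB468 library. In BT549 it had 4.40 CPM in parental control cells, 3.54 CPM after Acetalax, 24.0 CPM in CE control cells and 23.8 CPM after Acetalax. Both CE libraries were above both parental libraries, while control and treated libraries lay close together. The log2 ratio of CE to parental control cells was 2.45 (2.23 to 2.68), 5.46-fold, and the Acetalax ratios were -0.31 (-0.63 to 0.00) and -0.01 (-0.13 to 0.10), the last of which was 0.14 with TMM and 0.19 with DESeq2's size factors. The table counts CCL5 only on a patch scaffold of the genome, and 94 of 1199 windows of 101 bases in its longest coding transcript (7.84%) also occur in transcripts of other genes.

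CXCL16, the membrane-bound member, had 26.8 CPM in MDA-MB468 parental control cells, 54.1 CPM after Acetalax, 34.2 CPM in CE control cells and 67.2 CPM after Acetalax. In BT549 it had 0.805 and 0.621 CPM in parental control and treated cells and 5.99 and 4.86 CPM in CE control and treated cells. MDA-MB468 libraries were all above BT549 libraries, the reverse of the order for CXCL1, CXCL5, CCL2 and CCL5. The Acetalax log2 ratio was 1.01 (0.92 to 1.11) and 0.97 (0.89 to 1.06) in MDA-MB468 parental and CE cells, a difference of -0.04 (-0.17 to 0.09), and -0.37 (-1.16 to 0.40) and -0.30 (-0.55 to -0.06) in those of BT549. The ratio of CE to parental control cells was 2.90 (2.38 to 3.45), 7.45-fold, in BT549 and 0.35 (0.24 to 0.46) in MDA-MB468. CXCL16 overlaps MED11, which had from 291 to 667 counts per library, and the strand setting of the counts is not given in the sources used here.

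The count of members at least 2-fold higher after Acetalax is set beside all genes that had at least 10 counts over the 2 libraries. In MDA-MB468 parental cells 7 of 7 such members were higher and 0 lower, beside 7.73% and 8.94% of 19847 genes. CXCL16 was just past the bound there at 2.02-fold and just under it in CE cells at 1.97-fold, and CCL2 had an interval of -0.01 to 2.65 around its log2 ratio of 1.25. In MDA-MB468 CE cells 4 of 6 were higher (IL8, CXCL1, CXCL3 and CCL20) and 0 lower, beside 4.65% and 7.96% of 19808 genes. In BT549 parental cells 1 of 9 was higher (IL8) and 0 lower, beside 6.47% and 5.49% of 18752 genes. In BT549 CE cells 6 of 9 were higher (IL8, CXCL1, CXCL2, CXCL3, CCL2 and CCL20) and 0 lower, beside 6.78% and 17.5% of 18906 genes. The genes were chosen from these contrasts, so the counts describe them and show nothing further. Median log2 ratios of the members were 3.07, 2.40, 0.25 and 2.09 in this order, beside -0.12, -0.10, -0.07 and -0.23 for all genes. In BT549 CE cells 27.9% of the genes past 2-fold were higher with scaling by total counts, 38.6% with TMM and 41.8% with DESeq2's size factors, and the median of all genes shifted by 0.16 and 0.20. The lowest IL8 and CXCL1 ratios of the 4 pairs were both in BT549 parental cells.

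Between CE and parental control cells, 0 of 6 members in MDA-MB468 were at least 2-fold higher and 1 was lower (CXCL1), beside 6.87% and 4.88% of 19981 genes. In BT549, 2 of 9 were higher (CXCL16 and CCL5) and 2 were lower (IL8 and CXCL5), beside 10.8% and 9.72% of 18980 genes. The median log2 ratio of the members was -0.16 in MDA-MB468 and -0.66 in BT549, beside 0.05 and -0.05 for all genes. The 6 pairs share control libraries: each control library of an Acetalax pair also stands in a CE pair.

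**Figure D4:**
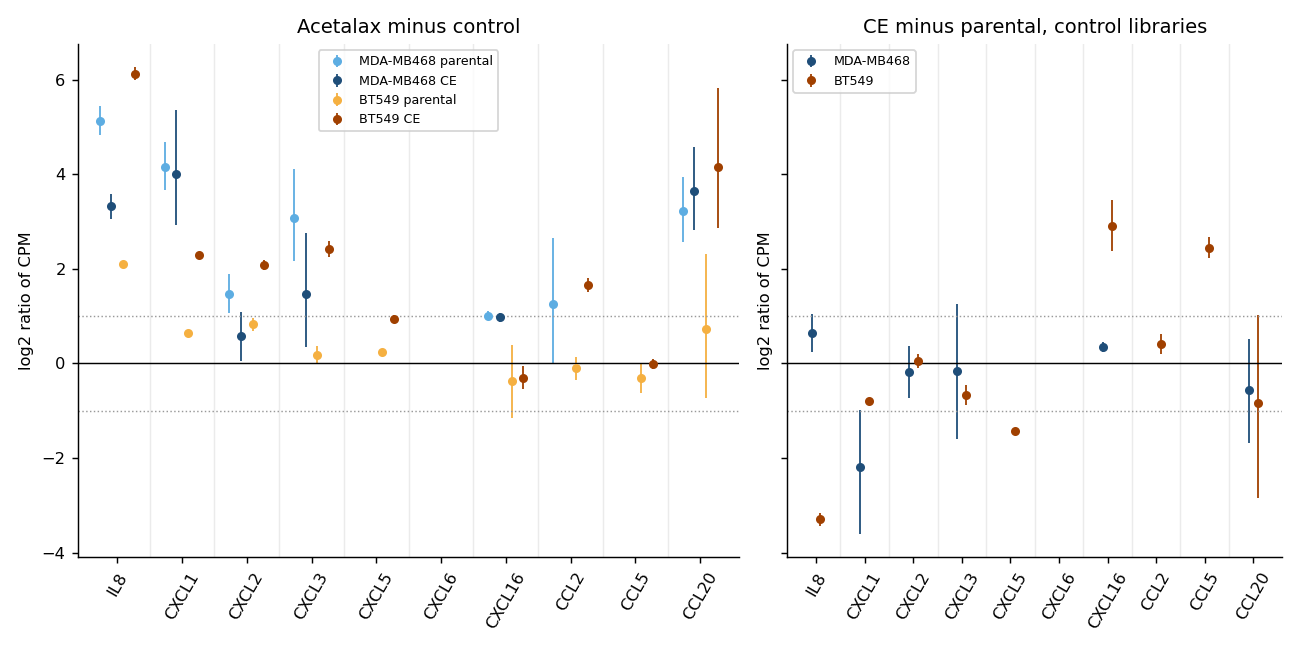
log2 ratio of CPM for each chemokine gene in the 4 Acetalax pairs (left) and the 2 pairs of CE and parental control libraries (right), with bars for the exact 95% counting interval and dotted lines at 2-fold; pairs with under 4 counts in a library are not drawn. The IL8 ratio is above the dotted line in all 4 Acetalax pairs, and in the control pairs it is 0.64 in MDA-MB468 and -3.30 in BT549.

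Levels of different genes are likewise compared per length, in FPKM. In MDA-MB468 parental control cells CXCL16 led with 9.60 FPKM, followed by CXCL2 with 0.971 and IL8 with 0.723 FPKM, whose intervals overlapped. After Acetalax IL8 led these cells with 25.3 FPKM, ahead of CXCL16 with 19.4 and CXCL1 with 9.37 FPKM, all with separate intervals. In MDA-MB468 CE cells given Acetalax CXCL16 stayed first with 24.1 FPKM and IL8 had 11.3 FPKM. CXCL1 led in all 4 BT549 libraries, from 80.2 FPKM in CE control to 392 FPKM in CE treated cells. IL8 was the third of the members in BT549 parental control cells at 33.0 FPKM, behind CXCL5 at 47.3, the sixth in CE control cells at 3.36 FPKM, and the second in both treated libraries at 142 and 234 FPKM. These places depend on the length used. Merged exons and longest coding transcript have 2588 and 1642 bases for IL8, and both have 2436 for CXCL5. A shorter length would raise the IL8 values, so its order against CXCL5 in BT549 parental control cells is not settled. CXCL5 was at least 630-fold higher in BT549 than MDA-MB468 in CE control cells, 2218-fold in parental and 1305-fold in CE cells given Acetalax, when the 0 counts of each MDA-MB468 library are set to 3. In parental control cells IL8 was 45.6-fold higher in BT549 than in MDA-MB468, and in CE control cells 2.97-fold.

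Genes whose 4 Acetalax log2 ratios lay near to those of IL8, among the other 10765 genes at that level, included IL6, LIF, FOSL1 and GEM. The measure was the root mean square difference over the 4 ratios, and it was 1.60 for LIF, 1.93 for FOSL1 and 2.00 for GEM. IL6, a cytokine of the acute-phase response, had ratios of 4.29, 2.51, 1.30 and 3.48 in MDA-MB468 parental, MDA-MB468 CE, BT549 parental and BT549 CE cells. LIF, a cytokine of the IL6 family, had ratios of 3.60, 2.50, 0.76 and 3.79. FOSL1, an AP-1 subunit, had ratios of 5.76, 3.15, 0.40 and 2.73. In BT549 CE cells the IL8 ratio of 6.13 was above those of these 4 genes. The measure rests on 4 ratios, and the genes were found by the search itself.

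**Figure D5:**
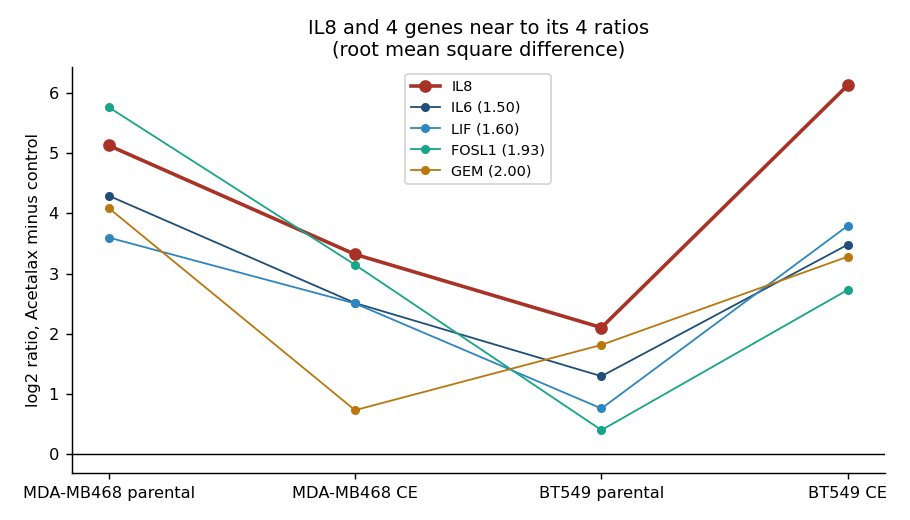
Acetalax log2 ratio of IL8 and of 4 genes near to it in the 4 backgrounds, with lines joining the values of a gene and the root mean square difference from IL8 in the legend. IL8 has the highest ratio of the genes drawn in BT549 CE cells (6.13), and FOSL1 in MDA-MB468 parental cells (5.76).

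Other genes of the pathway were tested in edgeR's quasi-likelihood fit, which compared treated and control cells within each of the 4 backgrounds and took the backgrounds, and not repeated cultures, as replicates. The backgrounds come from 2 lines, and the CE cells of a line derive from its parental cells, so the 4 are not independent. The fit called 2.72% of 19693 genes higher and 2.27% lower after Acetalax at an adjusted p under 0.05. It called 0 genes when the MDA-MB468 parental pair was left out, so no call below passed the threshold without that pair. The fit without it had fewer backgrounds and 3490 genes at an unadjusted p under 0.05, so the lost calls do not show that each change came from that pair. Separate terms for parental and for CE cells called 0 genes each, as did CE against parental control cells, with 1710, 2311 and 610 genes at an unadjusted p under 0.05 and 90, 357 and 49 calls by DESeq2.

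Of 31 other chemokine genes, 27 were analysed, 24 of them averaged under 1 CPM, and of 6 tested 1 rose and 0 fell. The 1 was CCL22, which attracts regulatory T cells: it had 14.5 and 30.4 CPM in MDA-MB468 parental control and treated cells and 14.8 and 47.8 CPM in CE cells, and at most 1 count in BT549 (fitted log2 change 1.46, SE 0.25, adjusted p = 0.0385 from edgeR). The median fitted change of the 6 was 0.09, beside -0.04 for all genes tested. Of 22 chemokine receptor genes, 18 averaged under 1 CPM, and the other 4, named after their values were seen, were ACKR3, ACKR2, CX3CR1 and CCR3. ACKR3, an atypical receptor that takes up CXCL12, had 18.9, 22.9, 24.2 and 61.5 CPM in BT549 parental control, parental treated, CE control and CE treated cells and at most 0.0421 CPM in MDA-MB468. ACKR2, a scavenger of CC chemokines, had from 14.6 to 24.4 CPM in MDA-MB468, and neither passed the test (adjusted p = 0.124 and 0.549 from edgeR). The receptors of the members were low. CXCR1 had at most 2 counts in any library, CXCR2 at most 6, CCR6 had 0 in all 8, and CXCR6 had between 2 and 26. Of 10 receptors tested, 0 rose and 1 fell, CCR2, with 11, 1, 26 and 3 counts in the MDA-MB468 libraries and at most 1 in BT549 (adjusted p = 0.0464 from edgeR). The median fitted change of the 10 was 0.07.

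Of 17 tested genes of cytokines and receptors that can induce chemokines, 3 rose and 1 fell, with a median change of 0.17. TLR3, a receptor for double-stranded RNA, fell: it had 4.20 and 1.30 CPM in MDA-MB468 parental control and treated cells, 6.18 and 1.30 CPM in CE cells, and in BT549 0.876 and 0.184 CPM in parental and 5.94 and 0.89 CPM in CE cells. It was at least 2-fold lower in all 4 pairs (fitted log2 change -2.13, SE 0.23, adjusted p = 0.0222 from edgeR). IRAK2, a kinase of IL1 and Toll-like receptor signalling, rose with ratios of 2.63, 2.43, 0.54 and 2.23, on 5 to 31 counts in MDA-MB468 and 992 to 4347 in BT549 (fitted change 1.72, SE 0.35, adjusted p = 0.0431 from edgeR). IL1RAP, the shared chain of the IL1 receptor, rose with a fitted change of 1.11, and IL18, a cytokine of the IL1 family, with 1.51, the latter on MDA-MB468 alone since BT549 had at most 1 count. Their adjusted p-values from edgeR were 0.0418 and 0.0291.

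Of 12 genes that act on the stability of chemokine mRNA or on NF-κB and MAP kinase feedback, 3 rose, 0 fell and 9 did not pass the test, with a median change of 0.27. TNFAIP3, which encodes A20, an inhibitor of NF-κB, had 4.75 and 70.8 CPM in MDA-MB468 parental control and treated cells and 5.44 and 46.3 CPM in CE cells, and in BT549 26.0 and 47.3 CPM in parental and 10.7 and 37.8 CPM in CE cells. Its ratio was lowest in BT549 parental cells, at 0.87 (fitted change 2.49, SE 0.46, adjusted p = 0.0385 from edgeR). ZFP36 and ZFP36L2, whose proteins bind AU-rich mRNA and promote its decay, rose with fitted changes of 0.96 (SE 0.13, adjusted p = 0.0291 from edgeR) and 0.78 (SE 0.17, adjusted p = 0.0465 from edgeR), and both were higher in 4 of 4 pairs. None of 4 tested growth factor genes of myeloid cells and none of 10 genes of chemokine shedding, cleavage or surface binding passed the test, with median changes of 0.44 and -0.07. Among the marker lists, ITGAM rose (1.77, adjusted p = 0.0443) among 7 leukocyte genes tested, KRT19 fell (-0.74, adjusted p = 0.0431) among 7 epithelial genes, 0 of 7 mesenchymal genes passed, and ERBB2 fell (-0.70, adjusted p = 0.0361) among 2 tested of the 3 receptors low in triple-negative cells, all from edgeR. ITGAM was low, with 5, 24, 9 and 60 counts in the MDA-MB468 libraries and 7, 18, 22 and 35 in those of BT549. Of 8 alternative fits, 3 kept the ITGAM call, 3 that of KRT19 and 5 that of ERBB2. The summed leukocyte markers were at 67.0, 49.4, 33.2 and 24.6 CPM in MDA-MB468 and between 2.58 and 4.39 CPM in BT549, lower in the treated library of both MDA-MB468 backgrounds. CD14, a monocyte marker looked at after its values were seen, had 47.2, 20.4, 13.8 and 6.33 CPM of this, and the other 14 summed to 19.8, 29.0, 19.4 and 18.2 CPM, higher in the treated parental library. CSF1R, a receptor of the macrophage lineage, had 7.73 and 17.2 CPM in these parental cells and did not pass the test (adjusted p = 0.130 from edgeR). The part of the leukocyte markers in the chemokine levels was not tested.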

How the data were processed

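Polyadenylated RNA of 8 cell line libraries was prepared with a directional kit and sequenced. Alignment by the authors to hg19 used STAR (2.7.11b in the submitters' processing notes), whose GeneCounts mode gave the deposited values, raw counts per gene. The annotation and strand column are not given in the sources used here. In all, 55679 gene identifiers fill 58154 rows; 1392 identifiers listed more than 1 time were used 1 time, 3 of them with differing counts.

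CPM used the counts on genes, and FPKM the merged exons of GENCODE on GRCh37. Ratios of 2 libraries have no pseudocount, and a member with under 4 counts in a library is given by its counts. The fits used edgeR 4.0.16 in R 4.3.3 (TMM, filterByExpr, Benjamini-Hochberg adjustment, threshold 0.05) with an intercept per background, 3 residual degrees of freedom for Acetalax over the 4 backgrounds, 2 for parental or CE cells apart and 1 for the control libraries. The SE of a fitted change was calculated as its absolute value divided by the square root of the test's F statistic, and is not an output of edgeR. The fits were also run on simulated counts with less spread than these data and the same change in every background. That run does not show how the fits perform on these libraries. Alternatives were DESeq2 1.42.0, other scalings, no filter, pseudocounts, another fold bound, each pair left out and no pairing. Intervals came from scipy 1.17.1.

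The members, the gene lists and the promoter sequences searched were chosen with earlier results of these data known. The named genes are the 10 members, list genes called by the fit or at least 2-fold changed one way in 3 or more Acetalax pairs with a mean of at least 1 CPM, the receptors of the members, and the 5 genes nearest to IL8. Some results under this rule are not reported here.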

Additional observations from a re-analysis of the deposited data

Results flagged for a closer look

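IL8 differed in direction between the lines in the control libraries: CE minus parental cells gave a log2 ratio of 0.64 in MDA-MB468 and -3.30 in BT549. Each value compares 2 libraries, both counting intervals lie off 0, and whether the lines differ was not tested.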

How the results depend on the processing

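All 50 member ratios kept their sign with the total on protein-coding genes, log2(FPKM+1) and log2(CPM + 0.5), and 49 of 50 with TMM or DESeq2's size factors; none of the ratios past 2-fold turned. Sizes moved more: 17 of the 50 differed by more than counting error with log2(FPKM+1), by up to 3.21, and 9 with log2(CPM + 0.5), by up to 2.30, both for CCL20 in BT549 CE cells. With log2(FPKM+1) the members at least 2-fold higher in MDA-MB468 parental cells numbered 3 in place of 7, and 0 in place of 1 were lower in MDA-MB468 CE than parental control cells. With a 1.5-fold bound, 4 in place of 1 were higher after Acetalax in BT549 parental cells, 1 in place of 0 higher in MDA-MB468 CE than parental control cells, and 5 in place of 2 lower in BT549 CE than parental control cells. Both BT549 counts include CCL20, which had 7 and 12 counts in parental control and treated cells and 5 in CE control cells. The shares of all genes under these 2 changes of setting are not given here, so the counts describe the members only. Genes called for Acetalax over the 4 backgrounds numbered 984, 2913 with DESeq2, 1073 with DESeq2's size factors in edgeR, 3585 of 37154 with every gene that had at least 1 count, from 0 to 554 when 1 pair was left out (0 without the MDA-MB468 parental pair), and 0 without pairing. DESeq2 called 90 genes in parental cells, 357 in CE cells and 49 for CE against parental control cells where edgeR called 0, and edgeR on every gene with at least 1 count called 643, 1080 and 45. The cause of these differences was not tested. All 12 list genes named as called kept their direction in every alternative fitted, but many lost the call. TLR3 and ZFP36 stayed past the threshold in 6 of 8 alternatives, and IL18 and ERBB2 in 5 of 8. CCL22, IL1RAP, IRAK2 and TNFAIP3 stayed in 4 of 8, ZFP36L2, ITGAM and KRT19 in 3 of 8, and CCR2 in 2 of 6. Depth limits CXCL6 in all libraries and CXCL5, CCL2 and CCL5 in MDA-MB468, which had under 20 counts per library.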

Other observations

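Genes of inflammatory signalling outside the naming rule were looked at after their values were seen. CSF2, a growth factor for neutrophils and macrophages, had 0, 19, 0 and 17 counts in the MDA-MB468 parental control, parental Acetalax, CE control and CE Acetalax libraries and 24, 41, 2 and 49 in those of BT549. TNF had 2, 26, 2 and 23 counts in MDA-MB468 and at most 1 in BT549. Both had more counts in the treated library in the backgrounds where they were seen at more than 1 count, and neither passed the test over the 4 backgrounds (adjusted p = 0.072 and 0.051 from edgeR). CX3CL1, a membrane-bound chemokine, had 122, 190.4, 78.3 and 86.6 CPM in MDA-MB468 and at most 10 counts in BT549, with an adjusted p of 0.126 from edgeR.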
